A study of Talpa occidentalis with 2 samples.

Results

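The genes described here are those that reach 300 kb or more from the first to the last base of their gene record in the annotation of the Iberian mole, Talpa occidentalis (build talOcc3). A record counted when its model name was a gene symbol. The rule took 190 models of 187 symbols, out of 21076 models with a symbol and 23336 models in all, which is 0.901% of the models with a symbol. No model without a symbol was as long. Span chose these models, so span is described and not tested.

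The annotation accompanied a circular chromosome conformation capture (4C-seq) study of the contacts of FGF9 in mole embryos. The study had 1 forebrain library and 1 hindlimb library, both from wild-type embryos of embryonic day 15 and both with the FGF9 transcription start as viewpoint, cut with NlaIII and then DpnII. Contact values per library were not analysed here and sequencing depth is unknown. All values below are read from 1 annotation of 1 genome, without replicates, so medians and counts are given beside those of other models and carry no test.

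A gene is long mainly through its introns, the stretches that are transcribed and then spliced out. In mammals the longest genes are known for roles in neurons, among them cell adhesion, axon guidance, synapse organisation and ion channels. Transcription of such a gene takes long, and several of them lie in common fragile sites, where chromosomes break under replication stress. In the annotation an exon is a coding (CDS) record and an intron is the distance between neighbouring CDS records of 1 transcript, so untranslated exons were not read.

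The 190 models had a median span of 387 kb, with quartiles of 333 and 486 kb. The longest was AGBL4, a carboxypeptidase that trims glutamates from tubulin tails, with 857 kb on the plus strand of scaffold 2 (72083011 to 72940119) and 12 coding exons. CTNNA2, the neuronal alpha-catenin that links cadherins to actin, had 831 kb on scaffold 9 (47652557 to 48483325, minus strand). CSMD3, a large membrane protein with CUB and sushi domains, had 829 kb on scaffold 22 (23410567 to 24239634, minus strand). CNTNAP2, an adhesion protein that clusters potassium channels along axons, had 797 kb on scaffold 5 (70288213 to 71085333, plus strand). LRP1B, of the LDL receptor family, had 794 kb on scaffold 1 (21601486 to 22395982, minus strand). These 5 models differed far more in exon number than in span, with 12, 16, 70, 20 and 77 coding exons in that order.

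Another 9 of the 15 longest models spanned 638 to 791 kb. They were SUGCT, a mitochondrial CoA transferase, with 791 kb, IMMP2L, a subunit of a mitochondrial inner membrane peptidase, with 731 kb, and NELL1, a secreted protein with EGF repeats, with 727 kb. LRRTM4, a postsynaptic partner of neurexins, had 722 kb, the middle model of dystrophin (DMD) 709 kb, and the netrin receptor DCC 672 kb. The secreted chemokine-like protein FAM19A1 had 662 kb, the exocyst subunit EXOC4 660.3 kb and the ephrin receptor EPHA6 638 kb.

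At the other end, the 5 models just inside the threshold were SLC4A4, CACNB2, TRDN, COL6A6 and ZFP30, with 301072, 300882, 300699, 300618 and 300195 bases. The 5 just outside were SLIT2, NTRK2, DLGAP1, AKAP6 and NTNG1, with 299166, 298111, 298085, 298076 and 297943 bases. Several of those outside, such as the guidance cue SLIT2 and the neurotrophin receptor NTRK2, belong to the same kinds of gene as those inside.

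**Figure D1:**
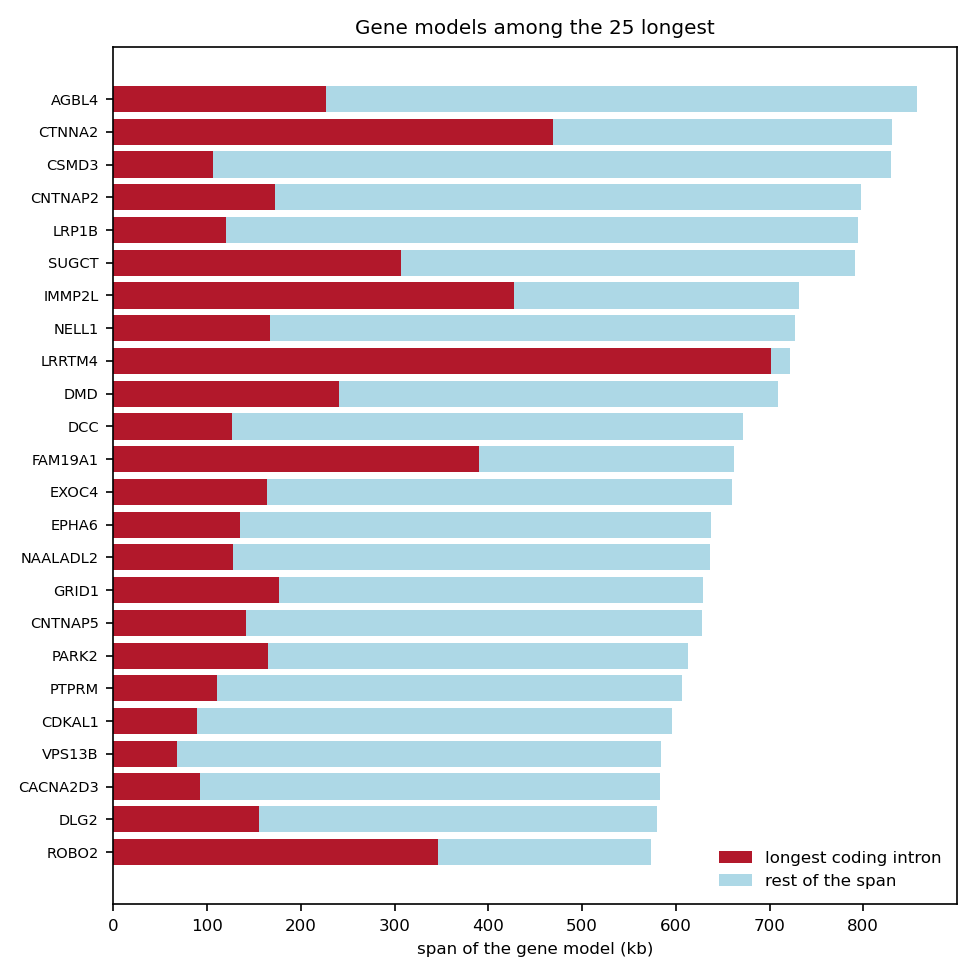
Span in kb of models among the 25 longest, longest at the top, with the longest coding intron in dark red and the rest of the span in light blue. In LRRTM4 1 intron of 701 kb takes nearly the whole bar, in CTNNA2 and IMMP2L it takes over 50%, and in CSMD3 and LRP1B it takes 12.9% and 15.2%.

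The long models lay on 44 scaffolds, all of at least 1 Mb, out of 57 scaffolds of that size. The plus strand held 99 of them and the minus strand 91. Scaffolds 12 and 5 had the most, with 10 each. The summed span of the long models was 81.8 Mb, or 4.28% of the 1912 Mb on scaffolds of at least 1 Mb. The long models took 14.5% of the summed span of all models with a symbol and held 2.45% of their coding bases. Of the 349 introns of 100 kb or more in models with a symbol, 172, or 49.3%, were in long models. Most long models, 179 of 190, came from EVM, which weighs alignments and predictions to build a consensus model. Another 10 came from the source named ALN and 1 from the aligner exonerate. EVM gave 94.2% of the long models, 91.3% of models of 100 kb to under 300 kb and 69.7% of all models with a symbol.

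The median was 19 coding exons in long models, 16 in models of 100 kb to under 300 kb and 6 in all models with a symbol. Median coding length was 2915 bases in long models, 2434.5 bases in the next class and 1077 bases in all models. Coding sequence therefore made up a median of 0.697% of the span of a long model, 1.57% in the next class and 14.0% in all models. Among the 190 long models Spearman's rho between span and the number of coding exons was 0.015, a description across models of 1 annotation that are not independent replicates.

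Counts of coding exons ran from 2 to 143, and 27 long models (14.2%) had 40 or more, against 11.8% in the next class and 1.25% of all models. SYNE1, the giant spectrin-repeat protein that anchors the nucleus to the cytoskeleton, had 143 coding exons and 26373 coding bases in 355 kb on scaffold 31 (15602960 to 15958453, plus strand). The matrix protein HMCN1 had 105 exons, the calcium release channels RYR3 and RYR2 had 100 and 81, and the cytoskeletal linker DST had 95. The axonemal dynein heavy chains DNAH8 and DNAH9 had 92 and 72, the adhesion receptor ADGRV1 had 88, and the dystrophin relative UTRN had 74. These are genes whose products are themselves very large proteins.

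The fewest coding exons were 2, in the potassium channel gene KCNB2. LRRTM4, the ubiquitin ligase adaptor FBXL7 and the adrenergic receptor ADRA1B had 3 each. The microRNA host gene MIR99AHG, FAM19A1 and the heparan sulfate proteoglycan gene GPC6 had 4 each. MIR99AHG is known as a noncoding host gene, but the annotation gave it 315 bases in CDS records.

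By role, 127 of the 187 symbols stood on at least 1 of 6 lists of genes grouped by what their products do, and 60 stood on none. The lists cover adhesion and guidance, synaptic scaffolds, channels, transcription and RNA binding, enzymes and signalling, and matrix. Some placements were loose. CSMD3, LRP1B and the chemokine-like protein FAM19A1 stood on the matrix list, the secreted protein NELL1 on the synaptic list and the exocyst subunit EXOC4 on the enzyme list. ATRNL1, an attractin-like protein with 26 coding exons, stood on the transcription list. Values by role are those of the lists as written. They were written with an account of these long genes already known, so their shares describe the lists and are not independent of the result. Across all 16075 symbols, 1.16% had a long model, and the median span of the longest model of a symbol was 13.9 kb.

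Adhesion and guidance genes had a long model for 31 of the 93 symbols found, or 33.3%, and a median span of 211 kb over the list. CTNNA2, CNTNAP2, LRRTM4 and DCC, described above, were among the longest. Several families had more than 1 long member. All 4 teneurins, which bind across synapses to latrophilins, were long, with TENM1 at 463 kb, TENM3 at 384 kb, TENM2 at 351 kb and TENM4 at 337 kb. The latrophilin ADGRL3 had 429 kb. The Slit receptors ROBO2 and ROBO1 had 574 and 325 kb, and the receptor phosphatases PTPRM, PTPRG and PTPRK had 607, 499.6 and 417 kb. The ephrin receptors EPHA6, EPHA5, EPHA3 and EPHB1 had 638, 316, 305 and 304 kb. Exon number within the list stayed between 3 and 33, with a median of 22.

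Synaptic scaffold, release and cytoskeleton genes had a long model for 21 of 63 symbols, also 33.3%. After NELL1 the longest were DLG2, a scaffold of the postsynaptic density, with 579.9 kb, the vesicle trafficking protein NBEA with 571 kb, ANKS1B with 527 kb, and ERC2, a protein of the presynaptic active zone, with 490.0 kb. In this list 1 of the 21 models, the synapsin gene SYN3, had an intron above 50% of its span.

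Channels and neurotransmitter receptors had a long model for 19 of 89 symbols, or 21.3%. Among the longest were the delta glutamate receptor GRID1 with 629 kb, the calcium channel subunit CACNA2D3 with 583 kb, the glutamate receptor GRM8 with 555 kb, and the potassium channel KCNMA1 with 478 kb. KCNB2 and RYR3, at 375 and 354 kb, lay close together in span and held the fewest and the most coding exons of the list, 2 and 100.

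Enzymes, kinases and GTPase signalling genes had a long model for 26 of 112 symbols, or 23.2%. AGBL4, IMMP2L and EXOC4 led the list, followed by NAALADL2, a peptidase-like protein, with 637 kb, and the ubiquitin ligase PARK2, known for its part in mitochondrial quality control, with 613 kb. RNA-binding and transcription regulators had one for 15 of 94 symbols, or 16.0%. The longest of these were NPAS3, a transcription factor of the nervous system, with 568 kb, the methyltransferase SMYD3 with 550.3 kb, the deacetylase HDAC9 with 479 kb, the B-cell and neuronal factor EBF1 with 389 kb, and the RNA-binding protein RBMS3 with 364 kb. Matrix, membrane-matrix link and glycan enzyme genes had one for 16 of 98 symbols, or 16.3%. CSMD3, LRP1B and DMD led these, with FAM19A1 and the thrombospondin-repeat protein THSD7B, at 552 kb, behind them. This list had the highest median number of coding exons, 27.5, and the transcription list the lowest, 12.

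A further list held 37 genes of human common fragile sites, and 23 of them, or 62.2%, had a long model in the mole. The median span of the longest model over that list was 443 kb. AGBL4, CSMD3, CNTNAP2 and LRP1B were among its longest. Over all symbols 1.16% had a long model. This list shares members with the others. Like them it was written with an account of these long genes known, so its share is not independent of the result. FHIT, the gene of a well-known human fragile site, had a single model of 84.3 kb with 3 coding exons.

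The longest intron of a long model had a median length of 123 kb, against 50.1 kb in models of 100 kb to under 300 kb and 4.49 kb in all models with an intron. These lengths are bounded by the span. As a share of the span, the longest intron took a median of 28.4% in long models, 31.7% in the next class and 33.9% in all. Models with more coding exons had smaller shares. Spearman's rho was −0.53 between coding exons and the share over the 190 models. The smallest shares came from models of opposite make. SYNE1, DNAH9 and CFAP47 had 143, 72 and 62 coding exons, and their longest introns took 4.52%, 6.04% and 6.94% of the span. MGMT and MIR99AHG, with 7 and 4 coding exons, came to 5.63% and 6.90%, and their gene records run far beyond their CDS records, as described below.

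An intron above 50% of the span was taken as the mark of a possible wrong join, in which pieces of different genes or distant copies are linked in 1 model. It was found in 33 of 190 long models, or 17.4%, against 24.8% in the next class and 26.0% of all models with an intron. The classes differ in exon number, on which the intron share depends, and no adjustment was made for it. The share was taken of the gene record, which in 8 long models is wider than the CDS records. In ADRA1B, MIR99AHG and FBXL7 the longest intron took most of the span of the CDS records. It came to 12.1%, 6.90% and 9.45% of the gene record, so these models stayed below the mark. Of the 33 marked models, 28 were among the 179 EVM models and the rest among the 10 ALN models. At other cut-offs, 114 long models had an intron above 25% of the span, 16 above 60%, 3 above 75% and 2 above 90%. Whether any of these models is a wrong join was not tested, since no transcript reads or genome sequence were used.

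The 3 models above 75% differ in make. LRRTM4 (scaffold 9, 50029101 to 50751083, plus strand) had 3 coding exons, and its second intron of 701 kb took 97.1% of the span. The 2 exons before it held 1551 coding bases and the last exon 220. KCNB2 (scaffold 20, 21916097 to 22291507, plus strand) had a single coding intron of 345 kb, or 92.0% of the span, with 579 coding bases before it and 2139 after it. Both came from the ALN source. COL6A6, a collagen VI chain, had 35 coding exons on the minus strand of scaffold 12 (11519694 to 11820311). Its intron 33 of 34 measured 231 kb and took 76.7% of the span, while its next longest intron measured 6.84 kb. The last 2 exons, beyond that intron, held 890 of the 6690 coding bases.

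The other 7 of the 10 largest shares lay between 64.3% and 67.9%. They were found in the glutamate receptors GRM5 (67.9%) and GRIN2A (64.3%), the phosphodiesterase PDE4B (67.9%), SMYD3 (66.6%), the synaptic vesicle protein SYNPR (65.9%), the ADP-ribose hydrolase MACROD2 (64.7%) and the potassium channel KCNH7 (64.5%). In GRM5, MACROD2, KCNH7 and GRIN2A it was the first coding intron that was the longest, and the coding bases before it came to 250, 74, 231 and 87. The lowest share above the mark was 50.2%, in DSCAM, an adhesion protein of the immunoglobulin family.

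By length, the longest intron after that of LRRTM4 was in CTNNA2, with 469 kb. IMMP2L had one of 428 kb, FAM19A1 390.1 kb, SMYD3 366 kb, ROBO2 347 kb, KCNB2 345 kb, the actin regulator PHACTR1 309.8 kb, and MACROD2 and SUGCT 307 kb each. SUGCT is the only one of these 10 whose intron stayed below 50% of the span, at 38.8%.

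Models with such an intron had a median of 12 coding exons and 2133 coding bases, against 20 exons and 3036 bases in the other 157. The smaller of the sides that the longest intron separates held a median of 279 coding bases in the 33 models and 502 in the 157, and the lowest value was 74 bases in the 33 and 22 in the 157. A nested model was found in 7 of the 33 and 36 of the 157. By intron order, and not by bases, the longest intron lay 5′ of the middle intron in 27 of 31 models with such an intron, or 87.1%. Among the others it did so in 98 of 150, or 65.3%. Only models in which a side could be given were counted. The longest intron was the first coding intron in 13 of the 33 and 22 of the 157. These values depend on exon number, which differs between the groups, and no adjustment was made.

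Over all long models with at least 3 coding introns, the longest intron lay 5′ of the middle intron in 125 of 181, or 69.1%. The share was 68.5% in models of 100 kb to under 300 kb and 63.0% in all models. The first or the second coding intron was the longest in 36.6% of the long models with at least 3 coding introns, 34.8% of the next class and 41.6% of all models. These shares depend on the number of introns. Median coding exons were 19, 16 and 6 in the 3 classes, and no adjustment was made, so preference for the first introns cannot be compared.

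**Figure D2:**
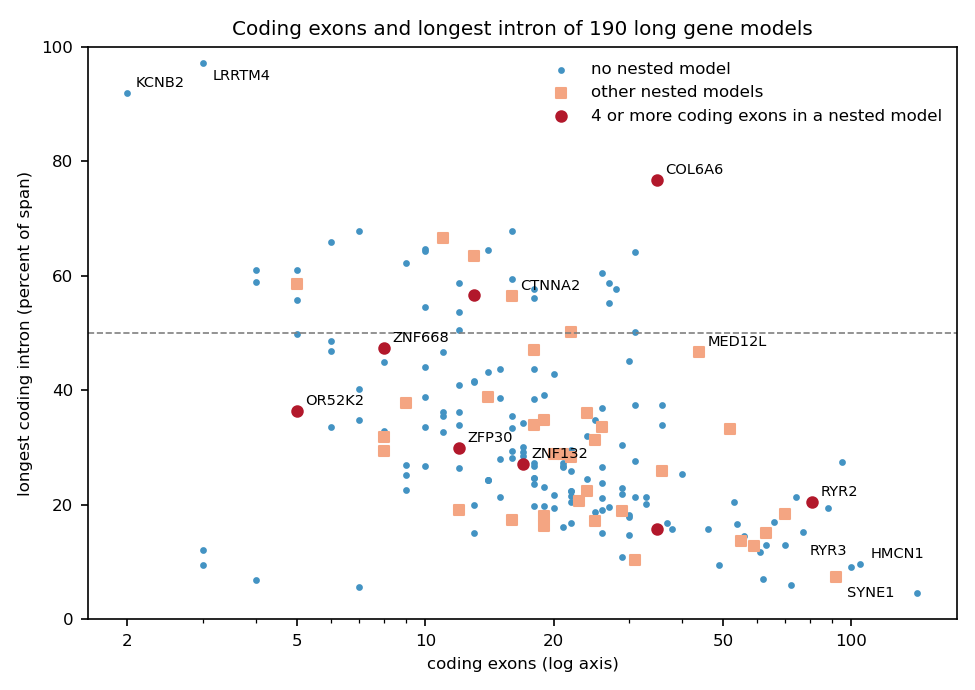
Each point is 1 of the 190 long models, placed by its number of coding exons (log axis) and by the share of its span taken by the longest coding intron, in percent. The dashed line marks 50%, above which 33 models lie. Small blue points have no nested model, orange squares have nested models of fewer than 4 coding exons only, and dark red circles have a nested model of 4 or more coding exons. LRRTM4 and KCNB2 stand at the upper left, SYNE1 at the lower right, and COL6A6 stands above the other models with more than 30 exons.

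Genes can lie inside the introns of others. Such nested models were found in 43 of 190 long models, or 22.6%, against 13.3% in the next class and 2.39% of all models with a symbol. A longer span gives more room, and per Mb of span the long models held 0.965 nested models, the next class 1.29 and all models 1.16. There were 79 nested models, of which 41 had 1 coding exon and 38 had more. The single-exon share was 51.9% in long models, 48.1% in the next class and 57.5% in all models with a symbol. All 79 were on the strand opposite to their host. The annotation as a whole holds no pair of overlapping models on 1 strand, and all 683 nested models in it are on the opposite strand, so the opposite strand is a property of the whole annotation. In 76 of 79 cases the nested model lay inside a single intron, against 204 of 216 in the next class and 561 of 656 in all models with a symbol.

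Most hosts, 32 of 43, held a single nested model, 6 held 2 and 5 held 3 or more. The single-exon ones included many short models of housekeeping genes, such as RPL37A in DCC, RPL6_copy4 in FBXL17 and PPIA_copy9 in EXOC6B. Ribosomal protein genes gave 7 of the 79, and 26 of the 79 carried a copy number in their name. Neither was counted over all nested models of the annotation, so they are not read as particular to long hosts.

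Several nested genes are known from other mammals to lie inside the same host, and RefSeq, on the newer assembly MPIMG_talOcc4v2.1, also places them there. Such a placement could be read for 33 of the 79, and 15 of these were inside the host in RefSeq as well. MED12L, a subunit of the Mediator kinase module, held 5 nested models in its longest intron of 162 kb on scaffold 13. Among them were the purinergic receptors P2RY12, P2RY13 and P2RY14 and the related receptor GPR171, with 1 or 2 coding exons each. SYN3 held TIMP3, an inhibitor of matrix metalloproteases with 5 coding exons over 47.2 kb (scaffold 19, 37249762 to 37297003, plus strand), in its longest intron of 189 kb. CTNNA2 held the leucine-rich repeat gene LRRTM1, IMMP2L held LRRN3, NBEA held MAB21L1 and LRBA held MAB21L2. ASTN2 held the ubiquitin ligase gene TRIM32, CSMD2 held HMGB4, SND1 held LRRC4, and CACNA2D3 held both models of LRTM1. In CTNNA2, IMMP2L, NBEA, LRBA, SYN3 and MED12L the nested genes lay in the longest intron.

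The other 18 of the 33 were outside the host in RefSeq, and all 18 had several coding exons. A single-exon model was placed only where all models of its symbol lay inside the host, and 31 single-exon models were not placed. The exon numbers of the 18 and the share inside the host follow in part from that rule. ZNF668, a zinc finger gene on the plus strand of scaffold 17 (36164019 to 36531304), accounted for 13 of them. Its model had 8 coding exons over 367 kb, and the models inside it had 150 coding exons in all. They ran from the syntaxin gene STX4 to PRR14, and included the histone methyltransferase gene SETD1A in 3 models, RNF40, and the chromatin remodeller gene SRCAP with 36 coding exons. In RefSeq all of them lay to the side of ZNF668, STX4 with 0 and PRR14 with 17 other protein-coding genes in between. COL6A6 held ASTE1 and PIK3R4, with 4 and 19 coding exons, inside the intron of 231 kb that marked it above, and in RefSeq both lay outside it with 2 and 0 genes in between. ZNF132 (scaffold 57, 621479 to 954500, minus strand) held 5 nested models, among them ZNF584, which RefSeq places outside it. RYR2 held ALLC, a gene of purine breakdown with 14 coding exons over 57.8 kb, in its longest intron, and RefSeq has ALLC on another sequence than RYR2.

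OR52K2, named for an olfactory receptor, held 9 models in 465 kb on scaffold 18 (41658796 to 42123581, minus strand), among them 8 further olfactory receptor models and TRIM68. Olfactory receptor genes are known for a coding sequence without introns, and OR52K2 had 5 coding exons spread over 4 introns of which the longest measured 169 kb. ZFP30 on scaffold 36 held the zinc finger genes ZNF527 and ZNF570. The host and the nested models did not each have a single RefSeq entry in these 2 cases, so no placement was read. ZNF668, OR52K2, ZNF132 and ZFP30 had intron shares of 47.4%, 36.4%, 27.1% and 29.9%, so that none of the 4 passed the 50% mark, while COL6A6 did. Of the 8 hosts with a nested model of 4 or more coding exons, COL6A6 and SYN3 passed it.

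A multi-exon nested model was present in 17 of 190 long models, or 8.95%, against 6.53% in the next class and 0.954% of all. ADGRL3 held 3 nested models, 2 without a symbol and an endogenous retrovirus envelope gene copy (ERVW-1_copy11). ANKS1B, FBXL17 and SUGCT held 2 each.

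**Figure D3:**
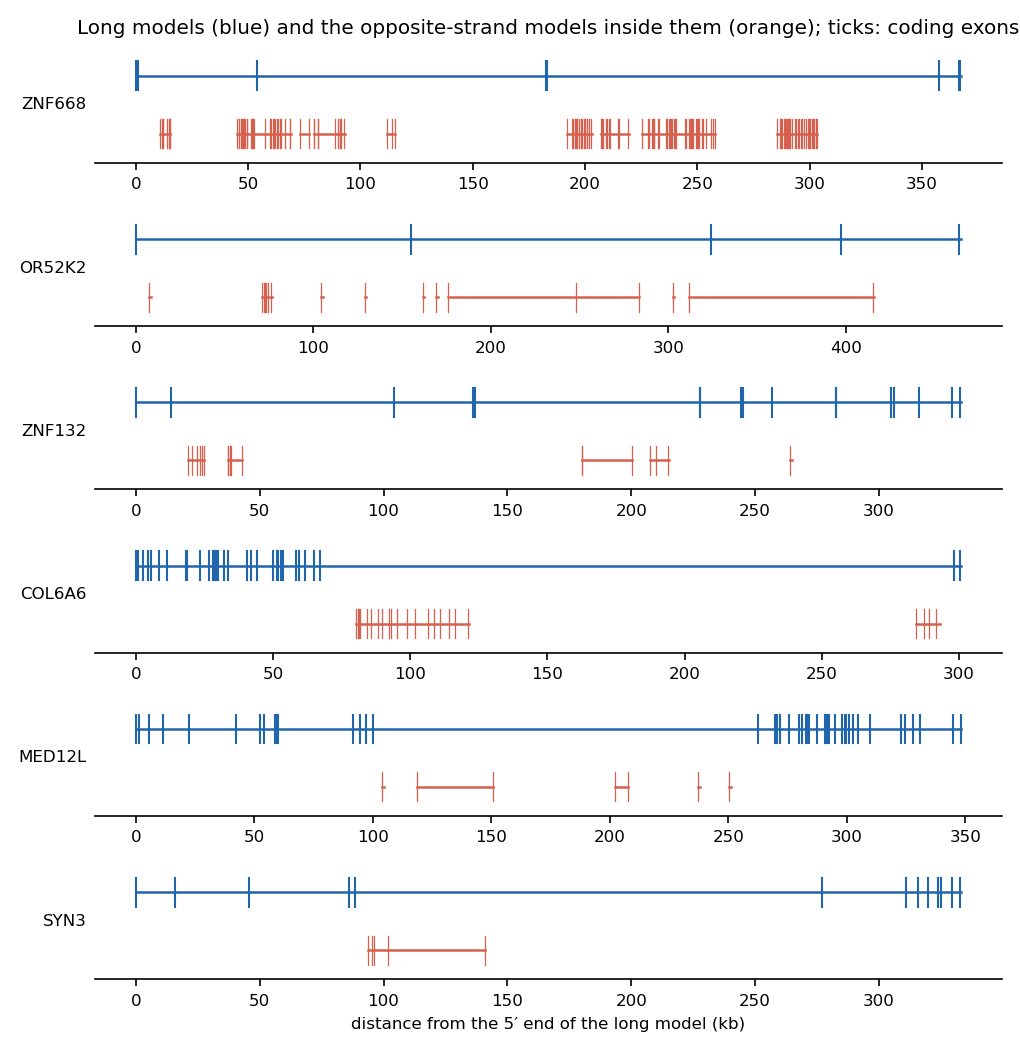
Coding exons (ticks) of 6 long models in blue and of the models nested inside them in orange, by distance in kb from the 5′ end of the long model. In ZNF668, OR52K2 and ZNF132 the nested models lie in several introns of the host, in COL6A6 both lie in intron 33, and in MED12L and SYN3 all lie in the longest intron.

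The distances from a long gene to its neighbours were wide. The wider of the 2 distances from a model to its neighbours on either side had a median of 287 kb for long models, 155 kb for models of 100 kb to under 300 kb and 35.9 kb for all models. The narrower one had a median of 62.0 kb, 28.3 kb and 8.54 kb in the same order. A wider gap of 500 kb or more was found in 57 of 190 long models, or 30.0%, against 14.1% of the next class and 4.68% of all. Both gaps reached 500 kb in 8 of 190, against 17 of 1026 models in the next class. Among all models with a symbol it was 89 of the 20161 with a gap on at least 1 side. Models with a neighbour on only 1 side could not be counted among these 89. The 8 were CSMD3, CNTNAP5, UNC5D, ERBB4, ADGRL3, ZFPM2, GRIK2 and SOX5. Span and the wider gap had a Spearman's rho of 0.18 over the 190 models. Not all were isolated, since the narrower gap was under 20 kb in 49 models, a count not made for the other classes.

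The 10 models with the widest gaps included these adhesion, guidance and synaptic genes. TENM3 (scaffold 13, 56863861 to 57247390, plus strand) stood 3374 kb from AGA, and TENM4 (scaffold 22, 10557888 to 10894919, plus strand) 2515 kb from its neighbour. ROBO1 had a gap of 1669 kb. ADGRL3 had 1627 kb on one side and 1173 kb on the other. CNTNAP5, a relative of CNTNAP2, had 1584 kb, the kainate receptor GRIK2 1577 kb, CNTNAP2 1529 kb, the contactin CNTN5 1472 kb and DLG2 1462 kb. Neighbours at the far side of such gaps were in part short single-exon models, such as RPL23A beyond CSMD3.

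The wider gap lay upstream, on the 5′ side, in 8 of the 10 models with the widest gaps, and in 17 of the 23 long models with a gap of 1 Mb or more. The side of gaps of that width was not counted in the other classes. A gap of 500 kb or more lay on the 5′ side of 39 long models and on the 3′ side of 26. These counts were 96 and 66 in the next class and 558 and 470 in all models. Over all 190 the wider gap was on the 5′ side in 130, or 68.4%, against 66.2% of the next class and 59.1% of all models. The median gap was 212 kb on the 5′ side and 88.7 kb on the 3′ side of long models, 104 and 44.5 kb in the next class, and 23.0 and 14.2 kb in all models. Untranslated first exons, which would extend a gene into the gap, were not read.

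Of all 20412 gaps between neighbouring models, 368, or 1.80%, bordered on a long model. The share was 12.4% of the 516 gaps of 500 kb or more and 17.5% of the 137 gaps of 1 Mb or more. Among the role lists, adhesion and guidance had a wider gap of 500 kb or more in 19 of 32 long models, with a median of 562 kb. Matrix genes had it in 11 of 18, with a median of 572 kb. Transcription regulators had it in 7 of 15, with a median of 398 kb, and channels in 6 of 19, with 373 kb. Synaptic scaffold genes had it in 3 of 21, with a median of 219 kb, and enzymes in 4 of 26, with 183 kb. The long models on no role list had it in 8 of 60, with a median of 141 kb. The smallest wider gaps were 7.61 kb in ZNF668, 10.9 kb in SCFD2 and 12.7 kb in OR52K2.

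In 7 cases 2 long models were direct neighbours. In 4 of these the symbols differed, as in the following 3. The vesicle priming gene CADPS and SYNPR lay 397 kb apart on scaffold 12, NBEA and the doublecortin-like kinase gene DCLK1 87.1 kb apart on scaffold 38, and the glypican genes GPC5 and GPC6 1016 kb apart on scaffold 39. In the other 3 both models carried 1 symbol, DMD or NRXN3.

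**Figure D4:**
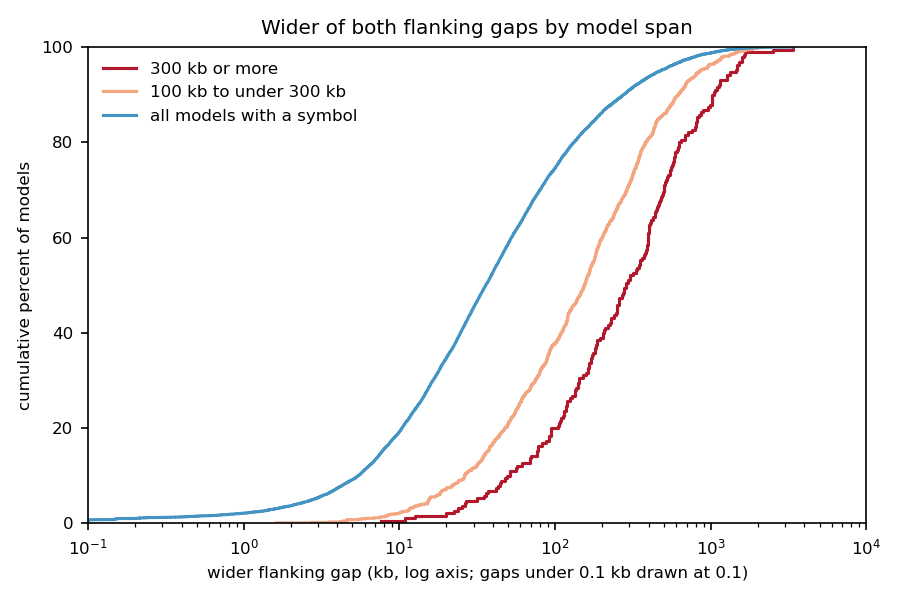
Cumulative percent of models (vertical axis) by the wider of both flanking gaps in kb (log axis), for long models in dark red, models of 100 kb to under 300 kb in orange and all models with a symbol in blue. The curves reach 50% at 287, 155 and 35.9 kb.

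Order beside the long genes was compared with RefSeq for symbols that had 1 model in both tables, leaving nested models out. Of 187 long symbols 177 had 1 RefSeq entry. A neighbouring pair with a long member was adjacent in RefSeq in 275 of 286 cases, or 96.2%, against 96.7% for the next class and 97.1% for all pairs. Genes nested in a model of the annotation were dropped from the RefSeq order too. ZNF668 therefore counted as adjacent to ZNF646 and ITGAL, although the 13 models inside it lay outside it in RefSeq. The share cannot reveal hosts that span genes placed elsewhere in RefSeq. The 11 pairs that were not adjacent included HTR5A and DPP10, PARD3 and RPL35, HECW1 and CD24, and CFAP47 and ZNF304, whose partners lay on different RefSeq sequences. Another 6, among them ACTN2 and RYR2, lay on 1 sequence with other genes between them. For ZNF132 the pair with PEG3 was not adjacent and the pair with SLC27A5 was.

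Some loci were longer than any single model of them. A long symbol had several models in 33 of 187 cases, or 17.6%, against 14.6% of all symbols. Counted by models, 36 of 190 long models, or 18.9%, shared their symbol with another, against 19.1% of the next class and 34.9% of all. In 21 of the 33 another model lay on the scaffold of the longest, on the same strand in 18. In the other 12 they lay on other scaffolds, and in 10 of these 12 every further model had 1 coding exon.

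Dystrophin, which links the muscle cytoskeleton to the membrane, had 3 long models in a row on the plus strand of scaffold 24. They spanned 378, 709 and 525 kb, with 12, 36 and 26 coding exons, and the gaps between them measured 41.7 and 37.4 kb with 0 models in between. The locus from 14685047 to 16377260 came to 1692 kb and 74 coding exons. Each transcript record names the transcript of another annotation it was matched to and the matched bases. The 3 DMD models matched bases 366 to 1936 and 2549 to 7994 of 1 dystrophin transcript, and 1322 to 4773 of another, in their order along the strand. A further DMD model, of 1 coding exon on scaffold 1429, matched bases 2147 to 2329 of the former transcript.

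NRXN3, a neurexin, had 2 long models of 321 and 348 kb on the minus strand of scaffold 29 with 425 kb between them, 1095 kb in all. The model that comes first on the strand matched bases 1773 to 4301 of its target and the other matched bases 4253 to 5485 of another. CTNNA3, an alpha-catenin of heart muscle, had 3 models over 1349 kb on scaffold 11, of which 1 was long, with 375 kb. In strand order they matched bases 223 to 1273, 1326 to 1571 and 1729 to 2885 of their targets, so the matched parts follow each other without overlap in number. LRP1B had a further model of 126 bases that matched bases 1054 to 1179 of the transcript of which the long model matched 1318 to 13312. It lay 499 kb upstream, and the locus came to 1293 kb.

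ABCA13, a very large lipid transporter, had 12 models over 984 kb of scaffold 12, all on the plus strand. The long one had 444 kb and 49 of the 79 coding exons, and 3 of the other models had a single exon. The long model matched bases 1892 to 15105 of its target. The 10 models downstream of it matched parts between bases 3457 and 14505 of other ABCA13 transcripts, numbers that overlap those of the long model, so the 79 exons were not read as successive parts of 1 gene. TENM2 came to 898 kb with its second model. XKR4 had a second model of 1 exon that was 7989 kb away on the same scaffold, with 47 models in between, so it is no neighbour of the long one.

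**Figure D5:**
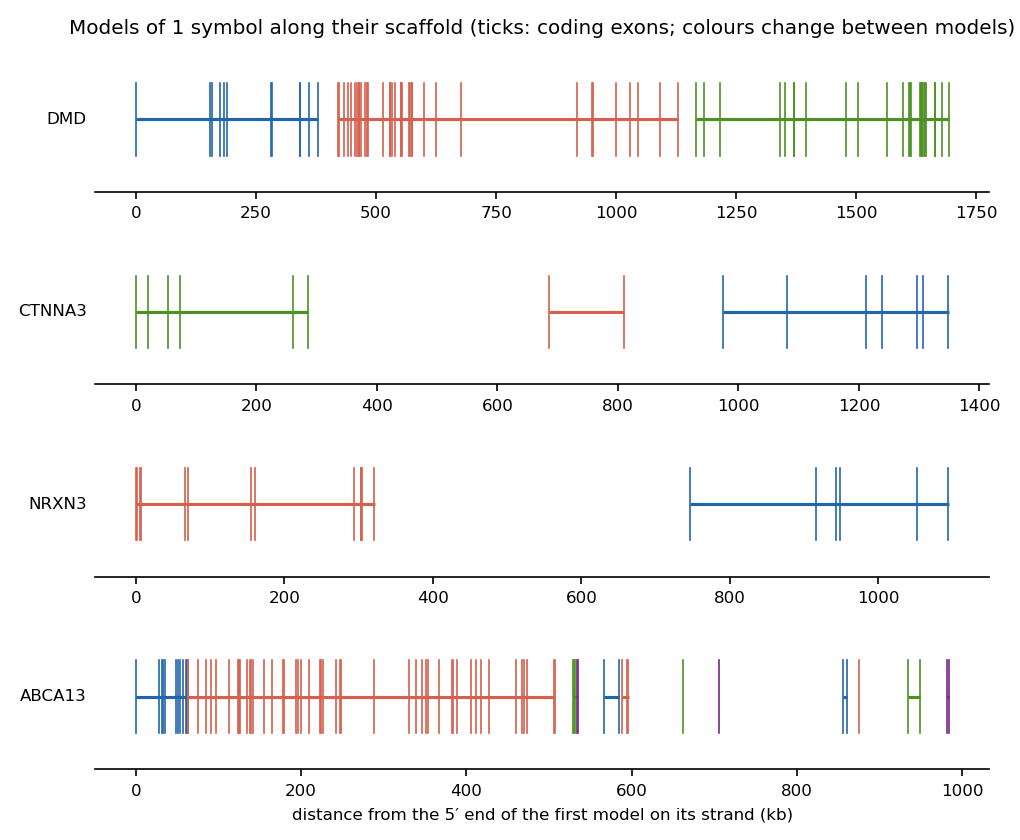
Models of DMD, CTNNA3, NRXN3 and ABCA13 along their scaffold, by distance in kb from the 5′ end of the first model on their strand, with ticks at coding exons and colours that change between models. DMD shows 3 long models with short gaps, CTNNA3 shows gaps of 164 and 401 kb between models, NRXN3 shows one of 425 kb, and ABCA13 shows 1 long model with short ones on both sides.

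A list of 156 genes known to be very long in humans gave the reverse view. All 156 had a model in the mole annotation, and for 77 of them, or 49.4%, it was long. Human gene lengths include untranslated exons, while only 412 models of the mole annotation had a record wider than the CDS records. The measures are therefore unlike, and a short model here need not be a short gene. The other 79 had a median of 172 kb for their longest model, with 30 between 200 and 300 kb, 30 between 100 and 200 kb and 19 under 100 kb. The shortest were LINGO2 with 1.85 kb and LRRC4C with 1.92 kb, leucine-rich repeat genes with a single coding exon each. The synaptic adhesion gene NLGN1 had 4.38 kb and 2 coding exons, the receptor gene SORCS2 6.34 kb, the zinc finger gene TSHZ2 10.3 kb, the transcription activator gene CAMTA1 13.1 kb, the postsynaptic scaffold gene DLGAP2 21.0 kb and TMEM132D 22.4 kb. CAMTA1 and SORCS2 had several models, and the others named here had 1.

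In 19 of these 79 the models of 1 symbol on 1 scaffold together reached 300 kb. EYS, a gene of photoreceptor maintenance, had 8 models over 1208 kb, of which the longest spanned 102 kb with 3 coding exons. The phosphodiesterase gene PDE4D had 2 models over 1031 kb, WWOX, a fragile site gene, 2 over 935 kb, the neuregulin gene NRG3 2 over 923 kb and the neurodevelopmental gene AUTS2 4 over 823 kb. By span of a single model none of these 5 counted as long.

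For 8 long models, all from the ALN source, the gene record was wider than the CDS records. The CDS records of SUGCT, IMMP2L, KCNB2 and FAM19A1 still covered 99.8%, 95.1%, 92.7% and 74.4% of the record. In the other 4 the coding part was short. The DNA repair gene MGMT (scaffold 11, 62392870 to 62765580, plus strand) had CDS records over 47.8 kb of a record of 373 kb. ADRA1B had 51.9 kb of 415 kb, FBXL7 35.9 kb of 307 kb and MIR99AHG 30.5 kb of 423 kb. By the span of the CDS records alone 186 models were long. The same difference was found in 412 models of the whole annotation, all of them from ALN.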

How the data were processed

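The table analysed is the gene annotation deposited by the authors for build talOcc3, in GFF format. Its score column, 1 deposited value for each transcript, belongs to the match with a named target transcript per the file's fields, without a stated formula, and was not used. First and last bases of records were taken as deposited. BWA is named in the submitters' processing notes. The table has no column per library, so forebrain and hindlimb were not compared.

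Symbols are model names without copy or confidence suffixes, and LOC identifiers or model numbers were no symbols. Span is end minus start plus 1 of the gene record, at least 300000 bases. Introns are distances between CDS records. A nested model lies wholly inside another, and a flanking gap is the distance to the next model that does not overlap. The place of the longest intron was read where a model had at least 3 coding introns and that intron was not the exact middle one. RefSeq (MPIMG_talOcc4v2.1, 31603 genes without sequence names) gave names, order and nesting only, by symbol. A placement of a nested model was read where host and nested symbol each had 1 RefSeq entry, the host was the longest model of its symbol, and the nested model either had several exons and the most coding bases of its symbol or all models of its symbol lay inside the host. Python 3.11.15, numpy 2.4.6, scipy 1.17.1 and matplotlib 3.10.9 were used, and the routines recovered all 7 quantities for 200 of 200 simulated models.

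The members, the gene lists and the rules were chosen with earlier results of these data known. Genes named are the 15 longest, the 10 with most and 5 with fewest coding exons, the 10 largest and 5 smallest intron shares, the 10 longest introns, the 10 hosts with most nested models, the 10 widest gaps, 5 on each side of the threshold, the 5 longest of each list, up to 15 listed human genes with no long model, and symbols with several models on 1 scaffold, with their flanking and nested genes. Some genes that this rule takes are not reported here. Ties and other genes, such as the teneurin, Slit and ephrin receptor families, were chosen after their values were seen. Alternatives changed the span threshold, the intron share, the model source, the scaffold size, the treatment of symbols with several models, and what counted as nested or as a neighbour.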

Additional observations from a re-analysis of the deposited data

How the results depend on the processing

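Of 54 alternative values for 9 results, 38 stayed within the set limits and 16 moved. The limits were a 95% interval for medians and percents and a ratio of 1.5 for counts. The interval treats models as independent, which they are not, so it is only a rough limit. All but 4 of the moves come from the span threshold. With a span of 500 kb or more there were 43 long models, 9 with an intron above 50% of the span and 14 with nested models. The median longest intron was then 165 kb, the median wider gap 441 kb, RefSeq adjacency 98.3%, and 30 listed human genes were long. With a span of 200 kb or more there were 429 long models, 93 with such an intron and 80 with nested models, and the medians were 94.0 kb for the longest intron and 219 kb for the wider gap. These follow from the choice of members. An intron share of 3/4 marked 3 models and a share of 1/3 marked 78. Counting only nested models of at least 2 coding exons left 17 hosts. Leaving out the models with an intron above 50% of the span gave a median longest intron of 107 kb, by construction. Using EVM models only or symbols with 1 model only moved none of the results past these limits. With symbols of 1 model only the median wider gap was 340 kb, against 287 kb as reported.

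No paired analysis was possible because each tissue had 1 library and no values per library were analysed. The planned account of 4C contacts by tissue was not run for the same reason. Values come from 1 annotation without reads, untranslated exons or genome sequence, so a split, joined or shortened model cannot be told apart from a gene that is so in the mole. The RefSeq table is of a later build, and its order was read through matching symbols only.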
